A study of Mus musculus with 11 samples.

Results

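Cadherins and protocadherins are cell adhesion genes, and 63 of the 13498 rows of the count table belong to them. They were chosen by name, as symbols made of Cdh and a number or beginning with Pcdh. Cdh1 and Cdh5, the epithelial and endothelial cadherins, were left out. The 63 genes fall into 15 classical cadherins (4 of type I and 11 of type II), the atypical cadherin Cdh13, 11 non-clustered protocadherins and 36 clustered protocadherins. All 63 passed the filter on low counts, which kept 13292 genes. GENCODE vM21 annotates 89 protein-coding genes by the same names, of which 27 were not analysed here, among them 12 alpha and 9 beta protocadherins.

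RNA came from retinas of NMRI mouse embryos at E13.5. DKO embryos (3 libraries) were Six3F/F; CAGGCre-ERTM; Six6–/–, with floxed Six3 alleles, a tamoxifen-activated Cre driven by a promoter active in most tissues, and no intact Six6. Six3KO embryos (3 libraries) were Six3F/F; CAGGCre-ERTM with both Six6 alleles intact. Six6KO embryos (2 libraries) were Six3F/F; Six6–/– without Cre. WT embryos (3 libraries) were Six3F/F with intact Six6 and no Cre. All groups thus carried floxed Six3, and tamoxifen was given to every dam (E10.5, E11.5). Cre was present in DKO and Six3KO alone, so loss of Six3 and presence of Cre cannot be told apart in comparisons with WT or Six6KO. Each replicate was a pair of retinas, per the series' design text, and a further Six6KO sample was removed by the submitters for high duplication.

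Cadherins are membrane proteins whose extracellular repeats bind calcium and pair with cadherins on the next cell. Classical cadherins, the core of adherens junctions, hold the actin cytoskeleton through catenins, and type II members sort neurons into layers and circuits. Clustered protocadherins of the alpha and gamma clusters are made from alternative first exons. Those exons give single neurons distinct surface identities, and in the retina they let starburst amacrine cells avoid their own branches. Non-clustered protocadherins of the delta groups lie outside the clusters and act in axon growth, cell movement and sorting.

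Libraries held 7807744 to 16403191 reads. Six3 stood at 56.2 to 98.2 CPM (read counts scaled to library size, with TMM factors) in DKO and 30.3 to 75.9 CPM in Six3KO, against 164 to 299 CPM in WT. Six6 stood at 52.8 to 99.8 CPM in DKO and 76.8 to 131 CPM in Six6KO, against 225 to 340 CPM in WT. Retinal progenitor markers (15 of 15 measured, none at 0) summed to 6304 to 7844 CPM in DKO and 8225 to 10770 CPM in WT. Every DKO sum thus lay below every WT sum. The sums in Six3KO (5609 to 8749 CPM) and Six6KO (7006 to 9035 CPM) overlapped those of DKO and of WT. Tissues around the retina differed between libraries: 25 of 25 periocular mesenchyme markers were measured and summed to 208 to 316 CPM in DKO, 749 to 5231 CPM in Six3KO, 2240 to 3279 CPM in Six6KO and 617 to 3214 CPM in WT, with none at 0. Six3KO library rh026 and Six6KO library rh020 stood apart at one end of the first principal component, which held 45.9% of the variance over all genes. At the other end, WT library rh023 (-51.05) and Six3KO library rh012 (-30.63) lay among the DKO libraries (-52.83 to -28.98). WT libraries rh016 and rh024 stood at 32.14 and 16.46. In bulk retinas, fewer cells of a type and less RNA per cell cannot be told apart.

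Levels between genes were set side by side as CPM per kilobase of exonic sequence shared with no other gene, averaged over all libraries. Cdh11, a type II cadherin, was the highest member at 67.5 CPM per kilobase. Cdh2, the N-cadherin of the neural epithelium, followed at 42.9 and then Pcdhgc3, a C-type gamma protocadherin, at 35.2. The place of Pcdhgc3 rests on the length used, since 66.9% of its exonic bases are shared. With all exonic bases counted it stood at 11.7 CPM per kilobase, below Pcdh18, Cdh4, Pcdh19, Pcdh7 and Pcdh9. Pcdh18 (29.3), Pcdh7 (17.8), Pcdh19 (14.6) and Pcdh9 (12.96) led the non-clustered protocadherins by CPM per kilobase, and Cdh4, the R-cadherin named for the retina, stood at 15.9. Among gamma members with unshared bases, Pcdhga11 came next after Pcdhgc3, at 18.8 CPM per kilobase. Of its exonic bases 73.6% are shared, and with all of them counted it stood at 4.97. Cdh20, the next type II cadherin, stood at 8.96 CPM per kilobase. Cdh13 was low, at 1.51, as were Pcdh20 at 1.14 and Pcdh12 at 0.757.

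In DKO against WT, Cdh13, Cdh9 and Pcdh9 rose and Pcdh1 fell, which is 4 of 63 members (6.35%) at an adjusted p under 0.05, where 1.29% of all genes tested were called (edgeR's quasi-likelihood test with Benjamini-Hochberg adjustment). All of them lie outside the protocadherin clusters. By direction, 3 members were higher, beside 0.655% of all genes, and 1 was lower, beside 0.639%. At an unadjusted p under 0.05, 16 members passed, beside 13% of all genes, with 10 higher (beside 5.47%) and 6 lower (beside 7.53%). DKO and WT libraries did not overlap for 20 members, 12 with DKO higher and 8 with DKO lower, beside 9.07% and 8.39% of all genes. Of the 12, 11 were classical cadherins or non-clustered protocadherins, the other was Cdh13, and none was clustered.

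**Figure D1:**
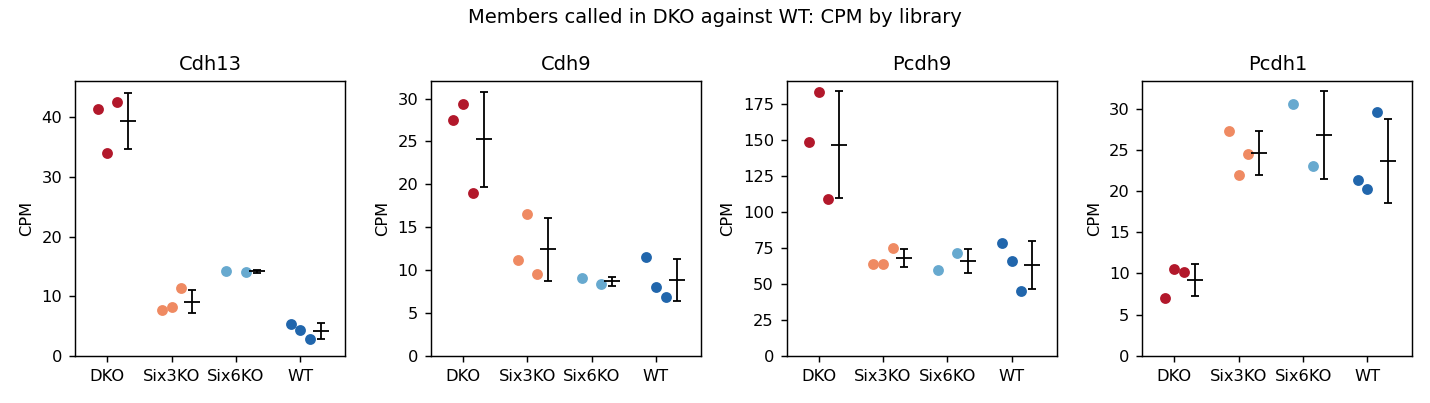
CPM (vertical axes) of Cdh13, Cdh9, Pcdh9 and Pcdh1 in each library of DKO, Six3KO, Six6KO and WT (points). Black bars give each group's mean and SD. Cdh13 lies at 34.0 to 42.6 CPM in DKO against 2.80 to 5.31 CPM in WT, and Pcdh1 at 6.97 to 10.52 CPM in DKO against 20.2 to 29.6 CPM in WT.

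Cdh13 (T-cadherin, chr8:118283733-119324921, plus strand, GRCm38) encodes a cadherin held to the membrane by a lipid anchor, with no cytoplasmic tail. It stood at 41.4, 34.0 and 42.6 CPM in DKO libraries, 7.66, 8.25 and 11.3 CPM in Six3KO, 14.3 and 14.0 CPM in Six6KO, and 5.31, 4.39 and 2.80 CPM in WT. Every DKO library lay above every other library, and every Six6KO and Six3KO library lay above every WT library. The means were 39.3 ± 4.67 CPM in DKO and 4.17 ± 1.27 CPM in WT (SD, n = 3 each), a log2 fold change of 3.22 ± 0.25 (standard error, adjusted p = 0.0008039). Against Six3KO, where both groups carry Cre, the log2 fold change of DKO was 2.12 ± 0.23 (adjusted p = 0.006069). Cdh13 was called in both comparisons in all 19 alternatives run, with 3.01 to 3.44 against WT.

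The single losses did not pass for Cdh13 over all genes. The log2 fold change was 1.10 ± 0.24 in Six3KO against WT (unadjusted p = 0.001026, adjusted p = 0.9999) and 1.74 ± 0.26 in Six6KO against WT (unadjusted p = 5.853e-05, adjusted p = 0.7779). DKO against Six6KO gave 1.47 ± 0.26 and fell short (adjusted p = 0.06508). Of 19 alternatives, 15 did not call Cdh13 in that comparison and 4 did. Those that did included the fit without Six3KO library rh026 (1.48, adjusted p = 0.03366), the compared groups alone (adjusted p = 0.007814) and DESeq2 (adjusted p = 1.519e-05). The interaction of both losses, the effect of Six3 loss with Cre in Six6 nulls minus that in embryos with intact Six6, was 0.37 ± 0.35 and was not called.

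Pcdh1 (chr18:38185914-38212053, minus strand), a delta-1 protocadherin also known from airway epithelium, was the member that fell. It stood at 6.97, 10.52 and 10.2 CPM in DKO, 27.3, 22.0 and 24.5 CPM in Six3KO, 30.5 and 23.0 CPM in Six6KO, and 21.3, 20.2 and 29.6 CPM in WT. The highest DKO library lay below the lowest library of every other group, while both single losses overlapped WT. The log2 fold change of DKO was -1.36 ± 0.21 against WT (adjusted p = 0.02365), -1.42 ± 0.21 against Six3KO (adjusted p = 0.02505) and -1.54 ± 0.23 against Six6KO (adjusted p = 0.03363). Six3KO and Six6KO against WT gave 0.06 and 0.18. The interaction was -1.59 ± 0.31 (unadjusted p = 0.0005072, adjusted p = 0.2864). The call against WT was lost without DKO library rh010 (-1.20, adjusted p = 0.1132) or rh011 (-1.47, 0.0832), and without WT library rh016 (-1.43, 0.05173) or rh024 (-1.18, 0.05731). The call against Six3KO was lost without DKO rh010 (-1.25, 0.1191) or rh011 (-1.52, 0.09888) and Six3KO rh006 (-1.33, 0.0624) or rh026 (-1.42, 0.0567). That against Six6KO was lost in 6 of the 11 fits that left out a library, at -1.71 to -1.32 (adjusted p = 0.05277 to 0.1698). They left out DKO rh010 or rh011, Six3KO rh006, Six6KO rh007 or rh020, or WT rh023.

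Cdh9 (chr15:16728756-16857094, plus strand), a type II cadherin that in mice places bipolar cell axons in the inner retina, stood at 27.5, 29.3 and 19.0 CPM in DKO. It stood at 11.1, 16.5 and 9.58 CPM in Six3KO, 9.05 and 8.34 CPM in Six6KO, and 11.6, 8.09 and 6.88 CPM in WT. All DKO libraries lay above all others. The log2 fold change of DKO was 1.51 ± 0.27 against WT (adjusted p = 0.03485), 1.03 ± 0.27 against Six3KO (adjusted p = 0.1308) and 1.54 ± 0.32 against Six6KO (adjusted p = 0.09292). The call was lost, at adjusted p = 0.05173 to 0.1738 and 1.35 to 1.75, without DKO rh010 or rh011, Six3KO rh006, or any WT library. Of its exonic bases, 6.3% are shared with Gm49127 on the other strand.

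Pcdh9 (chr14:93013410-93890679, minus strand), a delta-1 protocadherin of the developing nervous system, stood at 149, 184 and 109 CPM in DKO, 64.2, 64.3 and 75.1 CPM in Six3KO, 59.9 and 71.9 CPM in Six6KO, and 78.5, 66.2 and 45.3 CPM in WT. All DKO libraries were higher than the rest, whose groups overlapped one another. The log2 fold change of DKO was 1.21 ± 0.23 against WT (adjusted p = 0.03952), 1.12 ± 0.23 against Six3KO (adjusted p = 0.06768) and 1.16 ± 0.26 against Six6KO (adjusted p = 0.1109). Of 11 fits that left out a library, 9 lost the call, at adjusted p = 0.05394 to 0.1743 and 1.02 to 1.40. The exceptions left out DKO rh021 or Six3KO rh026. The call was also lost with DKO and WT fitted alone (1.21, adjusted p = 0.06885). With a mesenchyme score as covariate, Pcdh9 (1.27, adjusted p = 0.07969), Cdh9 (1.29, 0.1296) and Pcdh1 (-1.11, 0.07155) were not called in DKO against WT, while Cdh13 was. The score, the centred mean log2 CPM of the mesenchyme markers, was lowest in the DKO libraries. It ran from -2.80 to -1.89 in DKO and from -1.77 to 1.67 in WT, so this fit cannot separate that tissue from genotype. The part of the surrounding tissue in these values was not tested.

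Promoter windows around RefSeq transcript starts (GRCm38.p6) were found for 18 members. They are shown for Cdh9 and Pcdh9, which rose, and for Pcdh7 and Cdh12, the next members by p in DKO against WT that had a window. Capitals mark TAATT or its reverse complement AATTA, the core bound by many homeodomain proteins. TGATAC, a motif of SIX-family factors, was searched for as well on both strands, and no match of one motif overlaps the other. Cdh9 lies at chr15:16728665-16728964 on the plus strand, the first of the Pcdh9 windows at chr14:93890630-93890929 on the minus strand, Pcdh7 at chr5:57717831-57718130 and Cdh12 at chr15:21111202-21111501, both on the plus strand.
Cdh9: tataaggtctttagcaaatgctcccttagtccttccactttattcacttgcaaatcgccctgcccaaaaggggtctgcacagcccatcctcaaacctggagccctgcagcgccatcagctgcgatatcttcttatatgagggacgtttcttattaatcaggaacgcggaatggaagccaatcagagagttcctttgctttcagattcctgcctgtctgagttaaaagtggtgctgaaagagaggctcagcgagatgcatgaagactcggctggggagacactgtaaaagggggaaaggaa
Pcdh9: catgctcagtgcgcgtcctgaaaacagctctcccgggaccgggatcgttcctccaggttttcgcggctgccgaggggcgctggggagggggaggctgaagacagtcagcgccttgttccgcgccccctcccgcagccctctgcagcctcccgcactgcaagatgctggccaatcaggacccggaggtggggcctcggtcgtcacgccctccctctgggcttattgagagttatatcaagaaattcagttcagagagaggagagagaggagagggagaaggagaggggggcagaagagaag
Pcdh7: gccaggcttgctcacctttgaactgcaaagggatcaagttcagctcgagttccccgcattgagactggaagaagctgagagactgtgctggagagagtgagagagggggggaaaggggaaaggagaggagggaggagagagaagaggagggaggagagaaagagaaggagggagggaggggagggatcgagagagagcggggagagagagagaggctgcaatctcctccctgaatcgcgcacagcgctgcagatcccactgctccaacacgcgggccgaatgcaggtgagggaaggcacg
Cdh12: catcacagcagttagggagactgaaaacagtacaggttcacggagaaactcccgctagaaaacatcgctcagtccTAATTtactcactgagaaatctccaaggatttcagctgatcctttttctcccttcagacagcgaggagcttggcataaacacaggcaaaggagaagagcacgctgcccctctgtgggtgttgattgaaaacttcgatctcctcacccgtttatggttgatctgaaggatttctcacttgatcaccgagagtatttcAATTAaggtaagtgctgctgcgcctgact
Among these windows, Cdh12 alone held TAATT, with 2 matches, and none held TGATAC. Over the 19 windows of members, 5 held TAATT (26.3%), against 27% of 32851 windows of all genes. TGATAC was in 1 window (5.26%), that of Pcdh17, against 5.46%.

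Type II cadherins held most of the classical members that separated DKO from WT. Of 11, 5 lay higher in all DKO libraries than in all WT libraries (beside 9.07% of all genes) and 1, Cdh22, lay lower (beside 8.39%). The median log2 fold change of the 15 classical cadherins was 0.31, beside -0.00 over all genes, and it was -0.12 without DKO library rh011 and -0.02 without WT library rh023. Their summed level was 1425, 1434 and 1316 CPM in DKO, 1265, 1289 and 1173 CPM in Six3KO, 1294 and 1232 CPM in Six6KO, and 1121, 1216 and 1231 CPM in WT. Every DKO sum exceeded every other.

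Cdh11 (chr8:102632095-102785642, minus strand), which acts in mesenchyme and in brain, carried much of that sum. It had 771, 762 and 626 CPM in DKO, 606, 515 and 535 CPM in Six3KO, 568 and 664 CPM in Six6KO, and 553, 474 and 540 CPM in WT. DKO lay above WT without overlap, at a log2 fold change of 0.46 ± 0.13 that was not called (adjusted p = 0.1271). Cdh2 gave 385, 395 and 385 CPM in DKO, 345, 445 and 273 CPM in Six3KO, 357 and 282 CPM in Six6KO, and 254, 387 and 302 CPM in WT. DKO overlapped Six3KO and WT, and lay above both Six6KO libraries. The log2 fold change of DKO against WT was 0.31 ± 0.20 and was not called (adjusted p = 0.6149).

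Of the type II cadherins on chromosome 15 (Cdh6, Cdh9, Cdh10, Cdh12 and Cdh18), Cdh9, Cdh12 and Cdh18 separated DKO from WT. Cdh12 (chr15:20449265-21589533, plus strand), a brain cadherin, had 6.31, 8.04 and 9.28 CPM in DKO, 4.32, 5.85 and 4.54 CPM in Six3KO, 3.25 and 2.89 CPM in Six6KO, and 4.69, 3.35 and 2.80 CPM in WT. DKO lay above all other groups, but the log2 fold change against WT, 1.11 ± 0.27, was not called (adjusted p = 0.09759). Cdh18 (chr15:22549022-23474418, plus strand), another brain cadherin, had 15.1, 14.9 and 8.88 CPM in DKO, 6.63, 7.58 and 4.74 CPM in Six3KO, 3.37 and 2.35 CPM in Six6KO, and 6.88, 6.36 and 3.06 CPM in WT. It stood at 1.25 ± 0.35 in DKO against WT (adjusted p = 0.1367) and 2.18 ± 0.43 against Six6KO (adjusted p = 0.09161), with an interaction of 1.97 ± 0.55 (adjusted p = 0.3359). The other members of the chromosome, Cdh6 and Cdh10, overlapped between DKO and WT.

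Among type I cadherins, Cdh4 (chr2:179442431-179899373, plus strand) had 57.3, 55.5 and 95.5 CPM in DKO, 140, 163 and 89.1 CPM in Six3KO, 149 and 59.9 CPM in Six6KO, and 102, 193 and 167 CPM in WT. All DKO libraries were below WT, with a log2 fold change of -1.15 ± 0.39 that was not called (adjusted p = 0.2271). The type II cadherin Cdh22, chosen after its values were seen, had 0.820, 1.16 and 2.85 CPM in DKO against 4.30, 10.52 and 3.06 CPM in WT (-1.88 ± 0.68, adjusted p = 0.2524). Cdh20, also of type II, overlapped between DKO (25.2 to 42.9 CPM) and WT (30.3 to 63.2 CPM).

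**Figure D2:**
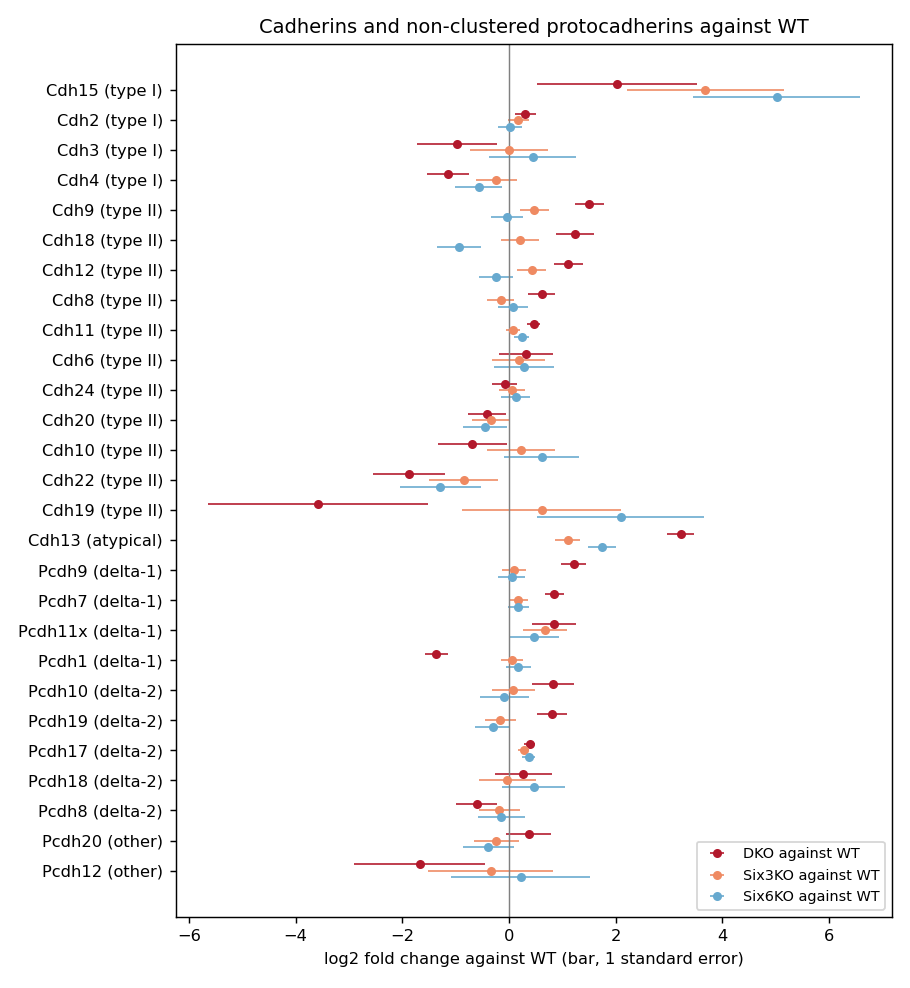
Horizontal axis, log2 fold change against WT, with bars of 1 standard error, for the 27 members outside the clusters (vertical axis), in DKO, Six3KO and Six6KO. In DKO, Cdh13 stands farthest to the right at 3.22 and Cdh19 farthest to the left at -3.58, with a wide standard error.

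Non-clustered protocadherins had higher summed levels in DKO. The sums were 929, 1021 and 749 CPM in DKO, 560, 506 and 706 CPM in Six3KO, 617 and 660.0 CPM in Six6KO, and 595, 483 and 644 CPM in WT. All DKO sums lay above all others, and the single losses overlapped WT. Of 11 members, 6 lay higher (beside 9.07% of all genes) and 2 lower (beside 8.39%) without overlap in DKO against WT, and the median log2 fold change was 0.39, which became 0.61 without WT library rh016. All of the delta-1 members (Pcdh1, Pcdh7, Pcdh9 and Pcdh11x) separated the groups, with Pcdh1 lower and the others higher.

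Pcdh7 (chr5:57717967-58133230, plus strand), a delta-1 protocadherin that guides retinal axons in Xenopus, had 205, 224 and 203 CPM in DKO, 114, 114 and 166 CPM in Six3KO, 115 and 148 CPM in Six6KO, and 110, 101 and 138 CPM in WT. DKO lay above all other libraries. The log2 fold change against WT of 0.85 ± 0.18 was not called (adjusted p = 0.05377). It was called in 6 of 19 alternatives, over which the log2 fold change ran from 0.64 to 1.18 and the adjusted p from 0.000932 to 0.232. Of its exonic bases, 21.1% are shared with 4932441J04Rik on the other strand. Pcdh19 (chrX:133582860-133688987, minus strand), the delta-2 gene of an X-linked epilepsy in humans, had 247, 271 and 180 CPM in DKO, 130, 142 and 84.8 CPM in Six3KO, 137 and 78.1 CPM in Six6KO, and 93.6, 150 and 154 CPM in WT. DKO lay above all other groups (0.81 ± 0.29 against WT, adjusted p = 0.2499), and was not called.

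Pcdh17 (chr14:84443563-84539002, plus strand), a delta-2 member that acts in axon extension, was higher than WT in all mutant libraries. It had 63.2, 60.6 and 74.9 CPM in DKO, 62.3, 64.9 and 56.4 CPM in Six3KO, 64.9 and 66.3 CPM in Six6KO, and 46.5, 52.6 and 52.6 CPM in WT. The log2 fold changes against WT were 0.39 ± 0.11 in DKO (adjusted p = 0.1352), 0.28 ± 0.11 in Six3KO (adjusted p = 0.9999) and 0.38 ± 0.12 in Six6KO (adjusted p = 0.9914), and none was called. These comparisons share the WT libraries.

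**Figure D3:**
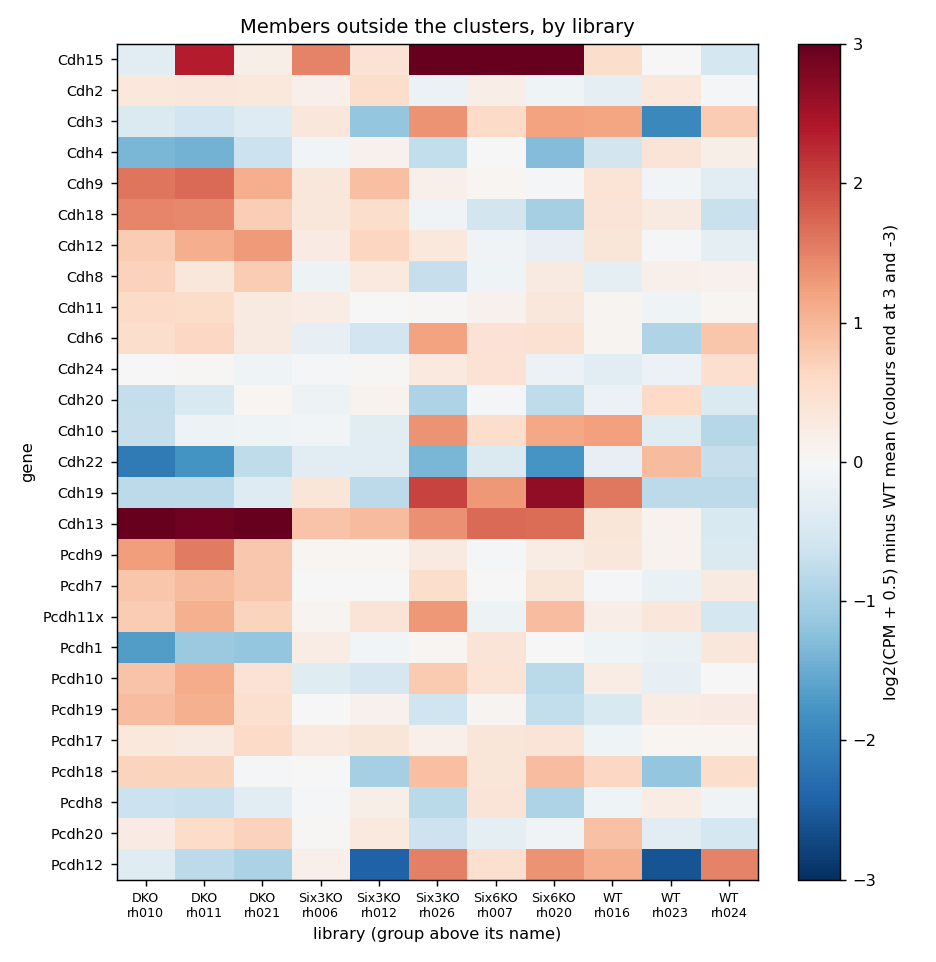
Log2(CPM + 0.5) minus the WT mean (colour, ending at 3 and -3) of the 27 members outside the clusters (rows) in the 11 libraries (columns, DKO, Six3KO, Six6KO and WT). Cdh13 is above the WT mean in every DKO, Six3KO and Six6KO library, and Pcdh1 is below it in the DKO libraries, at 6.97 to 10.52 CPM.

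Clustered protocadherins had 0 of 36 members called in DKO against WT by edgeR, with 0 higher (beside 5.47% of all genes) and 3 lower (beside 7.53%) at an unadjusted p under 0.05. Without overlap, 0 of 36 lay higher in DKO (beside 9.07% of all genes) and 4 lay lower (beside 8.39%), Pcdhac2, Pcdhb6, Pcdhb18 and Pcdhb20. Pcdhac2, the C-type alpha gene, had 2.54, 3.81 and 3.17 CPM in DKO, 3.89, 5.28 and 4.04 CPM in Six3KO, 3.83 and 3.74 CPM in Six6KO, and 5.86, 5.32 and 4.08 CPM in WT. DKO lay below WT (-0.68 ± 0.27, adjusted p = 0.301). Pcdhb18 and Pcdhb20, chosen after their values were seen, stood at -0.81 and -0.75 in DKO against WT and were not called.

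Of 13 beta genes, 12 had an estimate below 0 in DKO against WT, with a median log2 fold change of -0.40, beside -0.00 over all genes. The single losses were similar: 12 lay below 0 in Six3KO (median -0.28) and 10 in Six6KO (median -0.34), beside all-gene medians of -0.01 and 0.01. All of these comparisons share the WT libraries, so their estimates are not independent. WT library rh016 held the highest beta sum of all libraries, at 104 CPM. Whether the lower estimates belong to each mutant was not tested. The beta sums overlapped, at 50.1, 56.4 and 70.7 CPM in DKO, 78.7, 50.8 and 80.0 CPM in Six3KO, 68.4 and 62.5 CPM in Six6KO, and 104, 63.6 and 72.7 CPM in WT. Pcdhb7 and Pcdhb17 had the highest beta levels per kilobase, at 2.33 and 1.83 CPM. With the mesenchyme score as covariate, which was lowest in the DKO libraries, the beta median was -0.10.

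The 22 gamma genes had a median of -0.06, from -0.45 (Pcdhgc3) to 0.44 (Pcdhga1), and no gamma member separated DKO from WT. The gamma sums were 379, 437 and 364 CPM in DKO, 399, 446 and 450.2 CPM in Six3KO, 414 and 377 CPM in Six6KO, and 322, 430 and 499 CPM in WT, and overlapped. Pcdhgc3 took 11.8% to 12.7% of gamma reads in DKO, 13.3% to 21.2% in Six3KO, 15.02% to 20.9% in Six6KO and 12.3% to 19.9% in WT. The genes of the gamma cluster (chr18:37661793-37841873) share 31.5% to 100% of their exonic bases with another gene, through common last exons, so how their reads were divided is uncertain. Beta genes are less affected, at 0% to 9.7%.

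**Figure D4:**
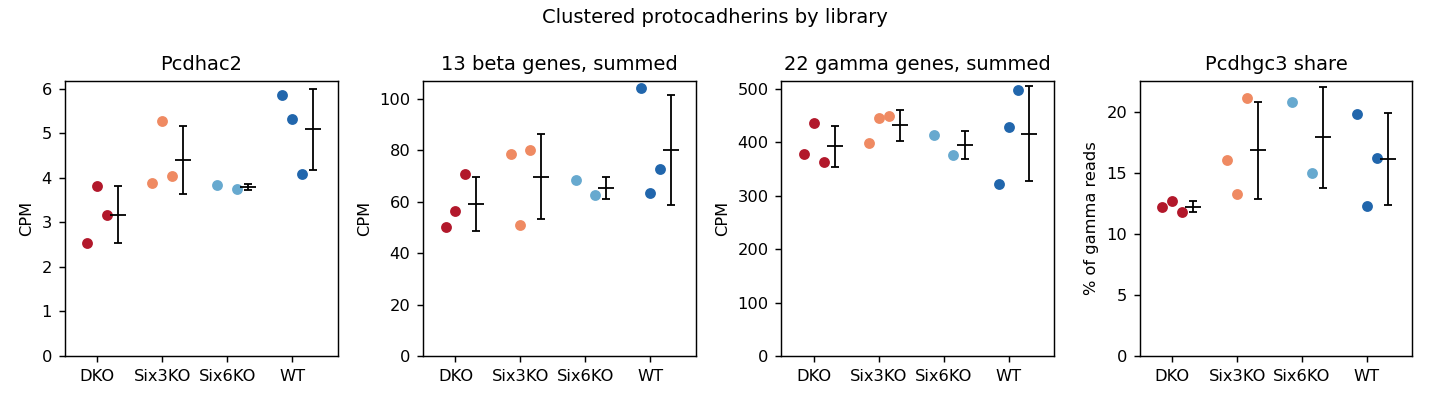
CPM of Pcdhac2, of the 13 beta genes summed and of the 22 gamma genes summed, and the Pcdhgc3 share of gamma reads in percent (vertical axes), in each library of DKO, Six3KO, Six6KO and WT (points). Black bars give each group's mean and SD. The beta sums lie at 50.1 to 70.7 CPM in DKO against 63.6 to 104 CPM in WT, and the groups overlap.

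Several members varied with markers of tissues around the retina, and their part in these values was not tested. Pcdh12, a protocadherin of blood vessel walls, had 2.38, 1.66 and 1.43 CPM in DKO against 7.42, 0.116 and 9.94 CPM in WT. Blood vessel markers (11 of 12 measured, none at 0) summed to 27.4 to 40.6 CPM in DKO and 10.9 to 164 CPM in WT, with WT library rh023 lowest in both. Cdh3, the P-cadherin of pigmented and surface epithelia, had 18.5, 16.6 and 19.0 CPM in DKO against 57.1, 6.24 and 42.5 CPM in WT, while pigment epithelium markers (11 of 12 measured, none at 0) summed to 120 to 395 CPM in DKO and 62.7 to 1943 CPM in WT. Cdh15, the M-cadherin of muscle, had 9.17 and 10.2 CPM in Six6KO against 0.547, 0.231 and 0 CPM in WT (5.02 ± 1.56, unadjusted p = 0.009956, adjusted p = 0.9914). Muscle markers (8 of 8 measured) summed to 255 and 605 CPM in Six6KO against 1.15 to 9.59 CPM in WT, and to 212 CPM in Six3KO library rh026, where Cdh15 was 9.58 CPM. Cdh19, a cadherin of Schwann cell precursors, had 2 reads over the DKO libraries and 27 over the WT libraries, or 0.0588 times as many after scaling, and the exact 95% interval of 0.00678 to 0.234 covers counting error only. All but one of the WT libraries had 0 reads of it. Cdh3 and Cdh19 were chosen after their values were seen.

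Pcdh18 (chr3:49743296-49757325, minus strand), a delta-2 protocadherin, had 194, 197 and 117 CPM in DKO, 124, 61.0 and 228 CPM in Six3KO, 157 and 232 CPM in Six6KO, and 188, 54.8 and 178 CPM in WT. Its lowest libraries were WT rh023 and Six3KO rh012, which also held the least mesenchyme among the groups other than DKO, at 617 and 749 CPM. The DKO libraries held less mesenchyme still, at 208 to 316 CPM. DKO against WT gave 0.27 ± 0.54 (adjusted p = 0.9296), which was not called. Ganglion cell and early neuron markers (20 of 20 measured) summed to 2666 to 3575 CPM in DKO and 3044 to 5599 CPM in WT, and macrophage markers (8 of 10) to 49.6 to 131 CPM in DKO and 26.9 to 66.6 CPM in WT, overlapping in both cases.

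**Figure D5:**
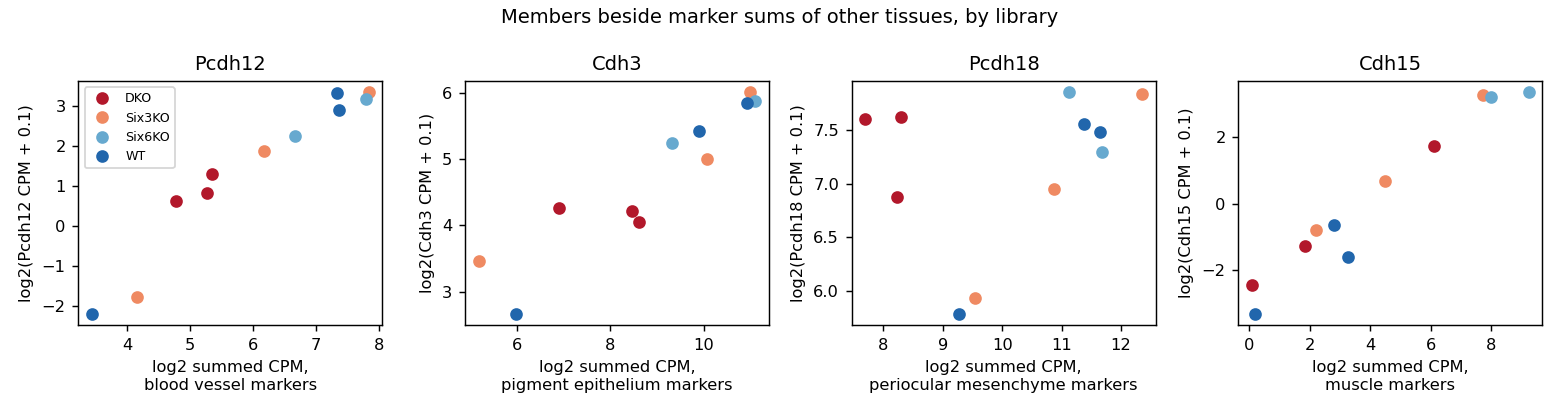
Log2(CPM + 0.1) of Pcdh12, Cdh3, Pcdh18 and Cdh15 (vertical axes) against the log2 summed CPM of blood vessel, pigment epithelium, periocular mesenchyme and muscle markers (horizontal axes), 1 point a library, coloured as DKO, Six3KO, Six6KO and WT. WT library rh023 is lowest of WT for Pcdh12 (0.116 CPM) and its vessel sum (10.9 CPM), and the DKO points for Pcdh18 (117 to 197 CPM) lie at mesenchyme sums of 208 to 316 CPM.

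In the single losses, 0 of 63 members were called by edgeR, in Six3KO or in Six6KO, where 0.00752% and 0% of all genes were called. DESeq2 called 1 member in each, Cdh13 (adjusted p = 0.04367 in Six3KO and 9.343e-05 in Six6KO). Of all 13498 genes it called 18 in Six3KO and 2 in Six6KO. At an unadjusted p under 0.05, 3 members passed in Six3KO, beside 3.5% of all genes, and 5 in Six6KO, beside 3.9%. Libraries did not overlap for 3 members higher and 0 lower in Six3KO (beside 3.1% and 3.69% of all genes), namely Cdh13, Pcdh17 and Pcdhga12. In Six6KO they did not overlap for 5 higher (Cdh11, Cdh13, Cdh15, Pcdh17 and Pcdhga12) and 2 lower (Pcdhac2 and Pcdhb17), beside 7.21% and 5.82%.

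DKO against Six3KO called 2 of 63 members, Cdh13 and Pcdh1 (3.17%, beside 0.587% of all genes, 0.331% higher and 0.256% lower). DKO against Six6KO called 1, Pcdh1 (1.59%, beside 0.233% of all genes, 0.166% higher and 0.0677% lower). No member was called for the interaction, nor was any gene (0%), with 8 members at an unadjusted p under 0.05, beside 9.99%. DESeq2 called 2 members there, Cdh15 and Pcdh1, beside 240 of all 13498 genes.

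Genes that work with cadherins were mostly not called. A list of catenins, which also held vinculin (Vcl), had 7 genes tested. Of these 7, 1 fell in DKO against WT (beside 0.639% of all genes) and 0 rose (beside 0.655%). Their median log2 fold change was -0.04, beside -0.00 over all genes. The one was Jup, plakoglobin, which links cadherins and desmosomal cadherins to filaments. Jup had 28.4, 31.6 and 37.0 CPM in DKO against 67.8, 54.4 and 56.2 CPM in WT, without overlap (-0.88 ± 0.18, adjusted p = 0.04944). Surface ectoderm markers (15 of 17 measured, none at 0) summed to 27.1 to 59.3 CPM in DKO and 60.0 to 523 CPM in WT, and the part of that tissue in Jup was not tested. Ctnnb1, beta-catenin, averaged 1330 ± 5.97 CPM in DKO and 1300 ± 236 CPM in WT (SD, n = 3 each), and Ctnna1 309 ± 17.9 CPM in DKO and 363 ± 27.7 CPM in WT.

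Of 15 other genes of the cadherin superfamily, 1 fell in DKO against WT (beside 0.639% of all genes) and 0 rose (beside 0.655%). Their median log2 fold change was -0.39, beside -0.00 over all genes. Cdhr1, a cadherin of photoreceptor outer segments, had 0.983, 1.82 and 3.49 CPM in DKO against 14.1, 20.2 and 12.9 CPM in WT, without overlap (-2.90 ± 0.55, adjusted p = 0.04203). Cdhr1 was also low in Six6KO, at 4.30 ± 0.643 CPM (SD, n = 2), and averaged 12.9 ± 7.5 CPM in Six3KO (SD, n = 3). It was not called in either single loss against WT. Fat1, a giant cadherin, averaged 1163 ± 150 CPM in DKO and 861 ± 310 CPM in WT (SD, n = 3 each) and was not called. Fat4 averaged 452 ± 72.0 CPM in DKO and 718 ± 209 CPM in WT. The counts of calls here were lost entirely without DKO rh010, DKO rh011, Six3KO rh006, WT rh016 or WT rh024.

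No gene was called among 12 genes of protocadherin promoter choice (CTCF, cohesin with its loader and regulators, and the chromatin genes Smchd1 and Dnmt3b), 11 cytoplasmic partners, 7 genes of cadherin cleavage or 6 repressors of epithelial cadherin. Of all genes, 1.29% were called in DKO against WT. Their medians in DKO against WT were -0.01, 0.03, -0.09 and -2.48. The promoter choice genes ran from -0.15 to 0.10, with Nipbl, the cohesin loader, at 0.04 and Rad21, a cohesin subunit, at -0.12. Nckap1 and Abi2, of the actin-regulating complex that binds delta protocadherins, stood at 0.09 and 0.03. Adam10, a protease that cuts cadherins, stood at -0.43 and Mmp14 at -0.23. Among the repressors, Zeb2 and Zeb1 stood at 0.18 and 0.17, Snai2 at -1.54, Snai1 at -3.43, Twist1 at -4.97 and Twist2 at -5.55. Both Twist genes are also counted among the mesenchyme markers. In the other comparisons none of these lists had a call. Of all genes, 0.587% were called in DKO against Six3KO, 0.233% in DKO against Six6KO and 0.00752% or fewer elsewhere.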

How the data were processed

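RNA-seq of 11 retina libraries was analysed. The authors deposited raw read counts per gene symbol. Per the submitters' processing notes, Trim Galore 0.3.7, TopHat2 2.0.13, HTSeq 0.6.1, Cufflinks 2.2.1 and Cuffdiff were used with mm10; the sources used here do not give the annotation, strand setting or handling of ambiguous reads. The series' design text names DESeq2 for the authors' comparisons.

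Counts were fitted with edgeR 4.0.16 in R 4.3.3 (quasi-likelihood, robust, TMM scaling, filterByExpr with minimum count 10, 4 group means over all 11 libraries), with Benjamini-Hochberg adjustment over 13292 genes and a threshold of 0.05. Standard errors were taken as the size of the log2 fold change over the square root of F. Positions and exons are from GENCODE vM21 (GRCm38), in which all 63 symbols matched a single gene. The fit was checked on simulated counts. Alternatives were other scalings, no filter, DESeq2 1.42.0, the compared groups alone, mesenchyme and neuron covariates, rh026 and rh020 left out together, and each library left out. Columns carry group and library names but no replicate number.

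Named members are those called anywhere, those with the smallest p in each comparison (8 in DKO against WT, 2 elsewhere) and the 2 highest per kilobase in each class. For other lists, called genes and the 2 with the highest CPM are named. Other members named beside counts, and Snai1, Snai2, Twist1 and Twist2, were chosen after their values were seen. Members and lists were chosen with earlier results of these data known. Depth ran from 7807744 to 16403191 reads and limits the low members most: Cdh19 held 2 reads over the DKO libraries.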

Additional observations from a re-analysis of the deposited data

How the results depend on the processing

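The number of members called moved with the method. In DKO against WT, 4 members were called, against 10 with DESeq2, 7 with the neuron score as covariate and 1 to 5 when a library was left out. Without DKO rh010 or rh011, or WT rh016 or rh024, Cdh13 alone was called, and without Six3KO rh006 or WT rh023, Cdh13 and Pcdh1. Over all genes, calls fell in those fits as well, from 172 to 20, 25, 45, 61, 59 and 59 in the order given. In Six3KO and in Six6KO against WT, 0 became 1 with DESeq2 in each. In DKO against Six3KO, 2 became 7 with DESeq2, 5 with the neuron covariate, 1 with the mesenchyme covariate, 1 without Six3KO rh026 and Six6KO rh020, and 1 to 3 without a library. In DKO against Six6KO, 1 became 8 with DESeq2, 7 with the compared groups alone, 8 with the neuron covariate, 0 with the mesenchyme covariate, 0 without rh026 and rh020, and 0 to 2 without a library. The interaction had 2 with DESeq2, against 0. Partner and superfamily calls were 2, against 1 with relative log expression size factors, 8 with DESeq2, 1 with the mesenchyme and 7 with the neuron covariate, and 0 to 2 without a library. The causes were not tested. Over all genes, DKO against WT had 172 calls, against 769 with DESeq2, 746 with the neuron and 202 with the mesenchyme covariate. DKO against Six3KO had 78 over all genes, against 775, 646 and 54 in the same order. DKO against Six6KO had 31, against 669, 704 and 1, and 682 with the compared groups alone. When a DKO, Six3KO or WT library was left out, all-gene calls ran from 16 to 91 in DKO against Six3KO and from 1 to 77 in DKO against Six6KO. With DESeq2, all-gene calls went from 1 to 18 in Six3KO against WT, 0 to 2 in Six6KO against WT and 0 to 240 for the interaction.

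Class medians in DKO against WT moved too. The classical median of 0.31 became 0.57 with the mesenchyme covariate, 0.13 with the neuron covariate and -0.12 to 0.32 without a library. The non-clustered median of 0.39 became 1.00 with the mesenchyme covariate and 0.39 to 0.61 without a library, and the clustered median of -0.11 became -0.25 to -0.03 without a library. The median clustered level per kilobase, taken in each library and averaged over the libraries, was 3.52 CPM, and 2.2 CPM with shared exonic bases counted in the length. No paired analysis was possible because the columns carry no replicate numbers.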
